A study of Mus musculus with 6 samples.

Results

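S100 proteins, annexins and galectins were examined in the hearts of young male mice in which a human SRY transgene had been switched on (hSRY-ON), against hearts in which it was off (hSRY-OFF). Members were the array probes whose gene symbol began with S100, with Lgals, or with Anxa and a digit. This rule took 45 of the 25697 probes and 38 of the 18138 gene symbols. The S100 proteins held 17 probes of 16 symbols, the annexins 15 probes of 12 symbols and the galectins 13 probes of 10 symbols. The rule also took S100pbp and Lgals3bp, which encode proteins that bind an S100 protein or a galectin and are no members of those families, and they were counted with the family they are named after.

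S100 proteins are small calcium sensors that change shape when calcium fills their EF-hand loops and then bind a partner protein. Annexins are also driven by calcium but attach to acidic membrane lipids, and several of them work in a complex with an S100 dimer, as Anxa2 does with S100a10. Galectins are lectins that bind galactose-containing sugar chains on the cell surface and in the matrix. In the heart, S100a1 is known as a regulator of calcium cycling in cardiac myocytes, S100a8 and S100a9 as the main cytosolic proteins of neutrophils, and Lgals3 (galectin-3) as a product of activated macrophages and a marker of cardiac remodeling.

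The transcriptome of the whole heart was measured in 3 hSRY-ON and 3 hSRY-OFF males of the FVB strain (FVB/N in the methods) at postnatal day 6 (P6), with 1 MouseRef-8 v2.0 BeadChip array per heart. The hSRY-ON males carried the Signalox-hSRY transgene, a single copy at the H11 locus with the ubiquitous CAG promoter, after Cre recombination had removed a loxP-flanked DsRed2 cassette and placed FLAG-tagged human SRY with IRES-EGFP behind that promoter. The recombinase came from the oocytes of Ddx4-Cre mothers, and the hSRY-ON pups chosen for the arrays did not carry Ddx4-Cre themselves. The methods define hSRY-OFF as Signalox-hSRY without recombination, whereas the results text of the study describes littermate controls that carried Ddx4-Cre only or neither transgene, so whether the control hearts held the silent transgene was not settled. The CAG promoter is active in most tissues, so the heart was not the only organ that expressed the transgene.

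Each array gave a bead intensity per probe and a detection p-value against its negative-control beads, and a probe was above background on an array where that p-value was under 0.05. Between 12138 and 13172 probes were above background on an array (47.2% to 51.3%), and the mean intensity ranged from 631 in hSRY-OFF 3, the dimmest array, to 939 in hSRY-OFF 2. Normalized profiles correlated at 0.983 to 0.992 within a group and at 0.940 to 0.960 between groups. The array had 1 probe for mouse Sry, which was above background on 0 of 6 arrays, and no probe for the human transgene was used. Normalized values are given as log2 intensities, and a fold change is the mean of the hSRY-ON hearts minus that of the hSRY-OFF hearts on this log2 scale, with its standard error (SE) over 3 hearts against 3. Probes above background on at least 3 of the 6 arrays were tested with limma, two-sided, with Benjamini-Hochberg adjustment over the 12970 probes tested. A probe was called changed where the adjusted p-value was under 0.05. Whether the hearts of the groups overlapped was judged on the normalized values, and the deposited intensities can overlap where these do not.

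Of the 45 member probes, 30 passed the detection filter, 10 in each family, and they stood for 25 symbols. Among these 30, 10 were called (33.3%), 7 higher and 3 lower in hSRY-ON hearts, whereas 3567 of all 12970 tested probes were called (27.5%), 1788 higher (13.8%) and 1779 lower (13.7%). Without normalization between arrays, the share of higher calls among all calls was 38.5% in place of 50.1%, and it was 58.3% under a TCC-like scaling of each array to the probes not called in a first fit. A tested probe is counted here whichever group made it pass the filter. The share of member calls thus lay near that of the array as a whole, and the families differed in what their members did.

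S100 probes were mostly on the high side in hSRY-ON hearts. Of their 10 tested probes, 9 had a positive fold change, 3 rose (S100a13, S100a6 and S100a11) and 1 fell (S100a16), and their log2 fold changes had a median of 0.45 and ran from -0.78 to 1.10. Among the annexins, 8 of 10 tested probes had a positive fold change, 3 rose (Anxa8, Anxa5 and Anxa2) and 0 fell, with a median of 0.27 and a range from -0.01 to 1.28. Among the galectins, Lgals3 rose by the largest amount of any member and 2 probes fell (of Lgals4 and Lgals9). The other 7 galectin probes were not called, 8 of the 10 values were negative, and the median of the 10 was -0.21. These 10 probes stood for 7 symbols. The negative values were those of Lgals1, of Lgals3bp and of the paired probes of Lgals4, Lgals8 and Lgals9, so repeat probes weigh in this count. Over all 12970 tested probes 6434 fold changes were positive and 6536 negative, and their median was -0.00464 (log2). All 3 hSRY-ON hearts lay above or below all 3 hSRY-OFF hearts for 14 of the 30 member probes, 11 above and 3 below, against 45.2% of all tested probes, 23.6% above and 21.6% below.

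**Figure D1:**
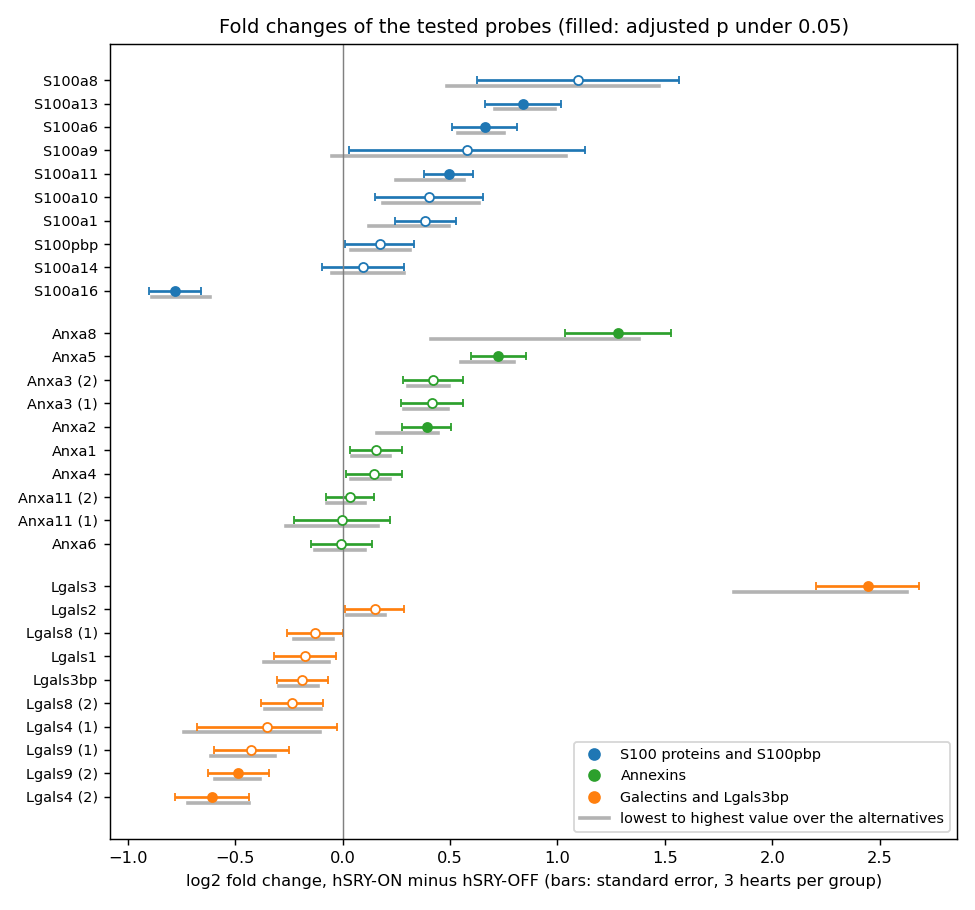
Log2 fold change of every tested probe by family (horizontal axis, hSRY-ON minus hSRY-OFF, points with SE bars, 3 hearts per group), filled where the adjusted p-value was under 0.05, with a gray bar below each for its lowest to highest value over the alternative settings. Lgals3 at 2.44 stands alone to the right while 8 galectin probes lie left of 0, among them the paired probes of Lgals4, Lgals8 and Lgals9. The value of Anxa8 was fitted to intensities that were not above background in hSRY-OFF hearts, and (1) and (2) mark separate probes of a gene.

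Lgals3 encodes galectin-3, which binds glycoproteins of the cell surface and matrix and is made in quantity by macrophages. The deposited intensities were 370, 447 and 224 in the hSRY-OFF hearts and 1137, 1301 and 845 in the hSRY-ON hearts. After normalization the log2 values were 7.59, 7.86 and 7.09 against 10.09, 10.20 and 9.58. Every hSRY-ON heart was far above every hSRY-OFF heart, and both groups were above background on all arrays. Lgals3 rose by 2.44 (SE 0.24, adjusted p = 0.000585), 5.44-fold, and was called in all 16 alternative settings (other choices of background, scaling, probe filter and model, and each heart left out in turn), with values from 1.82 to 2.63. In RNA of a whole heart, more cells of a type and more RNA per cell cannot be told apart.

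The other galectins did not follow Lgals3. Lgals1 (galectin-1), a galectin of muscle and connective tissue, read 13.68, 13.69 and 13.51 in hSRY-OFF hearts and 13.50, 13.23 and 13.63 in hSRY-ON hearts. The groups overlapped, and the fold change was -0.17 (SE 0.14, adjusted p = 0.397). Lgals8 and Lgals9 are tandem-repeat galectins with a pair of sugar-binding domains in one chain. The pair of Lgals8 probes had fold changes of -0.13 and -0.23 (adjusted p = 0.497 and 0.266).

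Lgals9, whose product binds T cell and macrophage receptors, was measured by a pair of probes that pointed the same way. The first read 9.33, 9.30 and 9.06 in hSRY-OFF hearts and 8.56, 8.76 and 8.91 in hSRY-ON hearts, so that all hSRY-ON hearts were lower, by a log2 fold change of -0.49 (SE 0.14, adjusted p = 0.0395). The second gave -0.42 (SE 0.18, adjusted p = 0.112), with overlap at hSRY-OFF 3. It passed the threshold in 1 of 16 alternative settings, without that heart (-0.61, adjusted p = 0.0133). Leaving out the heart that overlaps favors a call, so that result is no independent support. The call of the first probe held in 8 of 16 alternative settings. Among others, it was lost without hSRY-OFF 1 (-0.43), hSRY-OFF 2 (-0.45), hSRY-ON 1 (-0.40) or hSRY-ON 2 (-0.49), without a probe filter, under TCC-like scaling (-0.41) and without normalization between arrays (-0.59).

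Lgals4, a tandem-repeat galectin best known from the gut epithelium, also had a pair of probes. The one that was called read 8.76, 9.31 and 8.82 in hSRY-OFF hearts and 8.37, 8.48 and 8.22 in hSRY-ON hearts. The hSRY-ON hearts were all lower, and the fold change was -0.61 (SE 0.17, adjusted p = 0.0362). Its second probe spread widely among the hSRY-OFF hearts, overlapped between groups and gave -0.35 (SE 0.33, adjusted p = 0.458). It passed the threshold in 1 of 16 settings, without hSRY-OFF 3 (-0.74, adjusted p = 0.0373). That heart was the lowest of its group, so leaving it out favors a call and is no independent support. The call of the first probe held in 9 of 16 settings and was lost without hSRY-OFF 2 (-0.44) and without any one of the 3 hSRY-ON hearts (-0.54 to -0.67), as well as without a probe filter, under TCC-like scaling (-0.54) and without normalization between arrays (-0.72). Mouse Lgals4 and Lgals6 are close copies of each other, and whether these probes also bind Lgals6 RNA was not tested. The probe named Lgals6 was above background on no array.

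Lgals3bp, a secreted glycoprotein that binds galectins, had a fold change of -0.19 (SE 0.12, adjusted p = 0.287). Lgals2, close to background and detected on 1 hSRY-OFF and 2 hSRY-ON arrays, was the remaining galectin with a positive value (0.15, SE 0.14, adjusted p = 0.449).

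**Figure D2:**
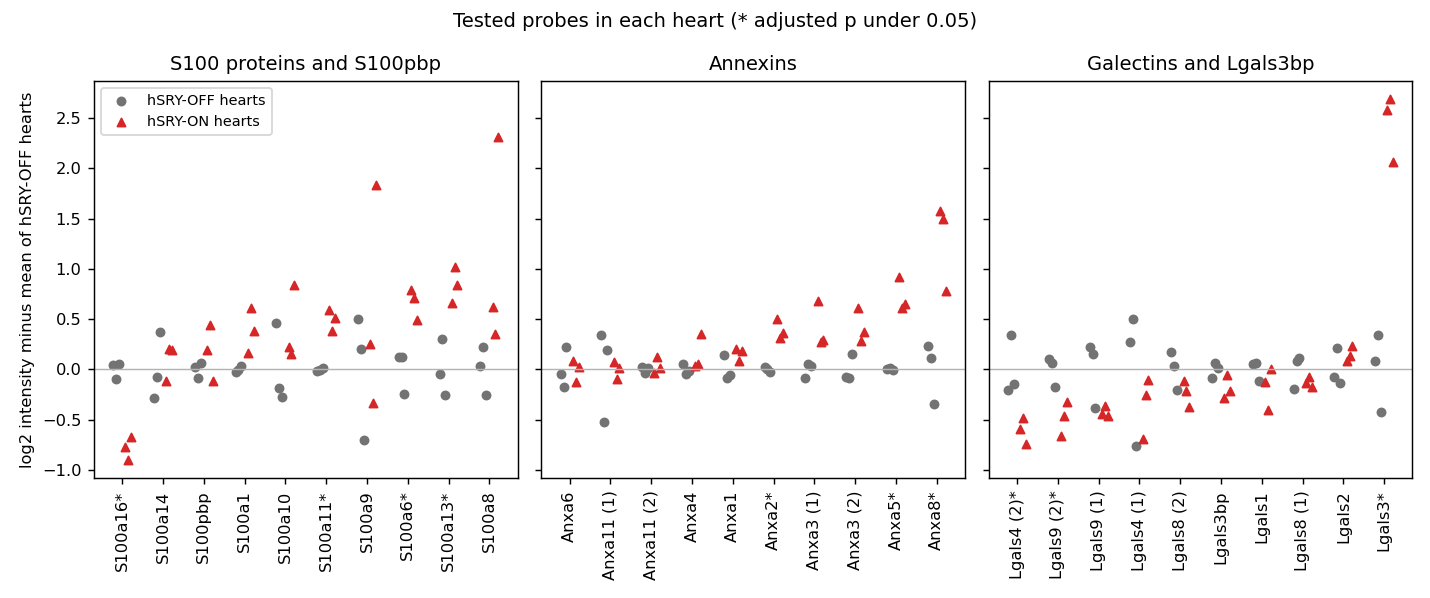
Normalized log2 intensity of every tested probe in each heart, minus the mean of its hSRY-OFF hearts (vertical axis), by family, with hSRY-OFF hearts as gray circles and hSRY-ON hearts as red triangles and an asterisk at an adjusted p-value under 0.05. The 3 hSRY-ON hearts of Lgals3 lie more than 2 log2 units above the hSRY-OFF mean, those of S100a16 lie below all hSRY-OFF hearts, and single hSRY-ON hearts stand far above the rest for S100a8 and S100a9.

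S100a16, an S100 protein found in many tissues, was the only member of its family that fell. It read 9.46, 9.33 and 9.48 in hSRY-OFF hearts and 8.65, 8.52 and 8.74 in hSRY-ON hearts. The groups were widely separated, at a log2 fold change of -0.78 (SE 0.12, adjusted p = 0.00319), 1.72-fold lower in hSRY-ON hearts. The call held in all 16 alternative settings, with values from -0.89 to -0.62.

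S100a13, which takes part in the release of signal proteins that lack a secretion signal, such as Fgf1, showed the opposite pattern. Its values were 10.92, 11.26 and 10.70 in hSRY-OFF hearts and 11.62, 11.98 and 11.80 in hSRY-ON hearts. All hSRY-ON hearts were higher, and S100a13 rose by 0.84 (SE 0.17, adjusted p = 0.0110), 1.79-fold. The call was lost in 1 of 16 settings, without normalization between arrays (0.74, adjusted p = 0.0842).

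S100a6 (calcyclin) is abundant in fibroblasts and in cells that proliferate, and S100a11 binds annexins at the membrane. S100a6 read 10.69, 10.68 and 10.32 in hSRY-OFF hearts and 11.35, 11.27 and 11.05 in hSRY-ON hearts, without overlap. It rose by 0.66 (SE 0.15, adjusted p = 0.0165), 1.58-fold. Without hSRY-ON 1 the value was 0.59 and the adjusted p-value 0.0610, and the call was also lost without normalization between arrays (0.57, adjusted p = 0.225). S100a11 read 13.71, 13.72 and 13.74 in hSRY-OFF hearts and 14.32, 14.10 and 14.23 in hSRY-ON hearts. After normalization the hSRY-OFF hearts were almost level and all hSRY-ON hearts lay above them, by 0.49 (SE 0.11, adjusted p = 0.0171), 1.41-fold. The deposited intensities of S100a11 overlapped (15796, 16964 and 11269 in hSRY-OFF hearts against 18199, 16073 and 17198 in hSRY-ON hearts). Leaving out hSRY-OFF 1 (0.48), hSRY-OFF 2 (0.49) or hSRY-ON 1 (0.45) ended the call of S100a11, as did median scaling (0.35, adjusted p = 0.0931), TCC-like scaling (0.43, adjusted p = 0.0526) and no normalization between arrays (0.25, adjusted p = 0.701).

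S100a1, the S100 protein of the cardiac myocyte, had normalized values of 13.82, 13.85 and 13.89 in hSRY-OFF hearts and 14.02, 14.46 and 14.24 in hSRY-ON hearts. All hSRY-ON hearts were above, but the fold change of 0.38 (SE 0.14, adjusted p = 0.0807) did not pass the threshold. It passed in 2 of 16 alternative settings, without background correction (adjusted p = 0.0290) and with a variance that follows intensity (adjusted p = 0.0110). S100a10, the partner of Anxa2, gave 0.40 (SE 0.25, adjusted p = 0.273), with overlapping hearts. S100a14 gave 0.09 (SE 0.19, adjusted p = 0.749) and S100pbp 0.17 (SE 0.16, adjusted p = 0.460).

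S100a8 and S100a9 form the heterodimer calprotectin of neutrophils and monocytes. S100a8 had the largest fold change of the family, yet it was not called. The deposited intensities of S100a8 were 746, 879 and 435 in hSRY-OFF hearts and 849, 778 and 2490 in hSRY-ON hearts, which gave normalized values of 9.01, 9.20 and 8.73 against 9.61, 9.33 and 11.29. The hSRY-ON hearts lay above the hSRY-OFF hearts, but most of the difference came from hSRY-ON 3. The fold change was 1.10 (SE 0.47, adjusted p = 0.122), and 0.49 (adjusted p = 0.107) without hSRY-ON 3. S100a8 passed the threshold in 1 of 16 settings, without normalization between arrays (adjusted p = 0.00964), where every member had the same SE of 0.30. S100a9 read 6.85, 6.54 and 5.64 in hSRY-OFF hearts and 6.59, 6.004 and 8.18 in hSRY-ON hearts. Here hSRY-ON 3 alone was above the hSRY-OFF range, the fold change was 0.58 (SE 0.55, adjusted p = 0.468), and without hSRY-ON 3 the sign turned (-0.05, adjusted p = 0.942).

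Neutrophil markers other than S100a8 and S100a9 were read beside them. Of the 17 listed genes on the array 8 were tested, and 3 rose and 0 fell. Over all 9660 genes tested by their brightest probe, 14.9% rose and 13.9% fell. The 3 were the iron-binding protein Lcn2, the secreted Retnlg (1.44, SE 0.44, adjusted p = 0.0463) and the protease inhibitor Stfa2 (1.42, SE 0.44, adjusted p = 0.0480). Lcn2 was above background in no hSRY-OFF heart and, by the lower bound after background correction, was at least 3.77-fold higher in hSRY-ON hearts (adjusted p = 0.000494). It passed the detection filter only through the hSRY-ON hearts, where it was high, so its p-value is no independent support. The median over the 8 genes was 1.11, and their summed level (linear intensity after background correction) was 348 to 386 in the hSRY-OFF hearts and 3594, 558 and 1881 in hSRY-ON 1, 2 and 3. The high sum of hSRY-ON 1 was mostly that of Ltf (11.44, against 5.26 and 7.27 in the other hSRY-ON hearts). Of the 8 genes 4 (Stfa1, Stfa2, Retnlg and Camp) were highest in hSRY-ON 3, the heart with the most S100a8 and S100a9, and the other 4 (Ltf, Lcn2, Il1b and Mmp9) in hSRY-ON 1. The defining neutrophil genes Csf3r, Ctsg, Il8rb, Mmp8, Padi4 and Prtn3 were above background on no array. The part of neutrophil RNA in the values of S100a8 and S100a9 was not tested.

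Most macrophage markers were higher in all hSRY-ON hearts, as Lgals3 was. Of 17 tested genes 12 rose and 0 fell, with a median of 0.93 (14.9% of all 9660 genes tested by their brightest probe rose, and 13.9% fell), among them the complement gene C1qc (1.12, SE 0.17, adjusted p = 0.00272) and the lysosomal Cd68 (0.99, SE 0.16, adjusted p = 0.00365). Csf1r, the receptor for macrophage growth factor, gave 0.40 (SE 0.33, adjusted p = 0.408). Cd83 (-0.23), Emr1 (-0.21), Aif1 (0.06) and Lyzs (0.31) were not called either. Emr1 was above background in 2 hSRY-OFF hearts and 1 hSRY-ON heart. The summed level of the list was 8780 to 11855 in hSRY-OFF hearts and 19577 to 20541 in hSRY-ON hearts. The lysozyme names Lyz, Lyz2 and Lyzs were counted as separate genes. Lyz and Lyz2, which rose, were the brightest genes in the sum (means of 12.80 and 12.07 in hSRY-ON hearts). Cd163, 1 of the 12 genes that rose, was above background in no hSRY-OFF heart. It passed the filter only through the hSRY-ON hearts, so its call is no independent support. The part of macrophage RNA in the value of Lgals3 was not tested.

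**Figure D3:**
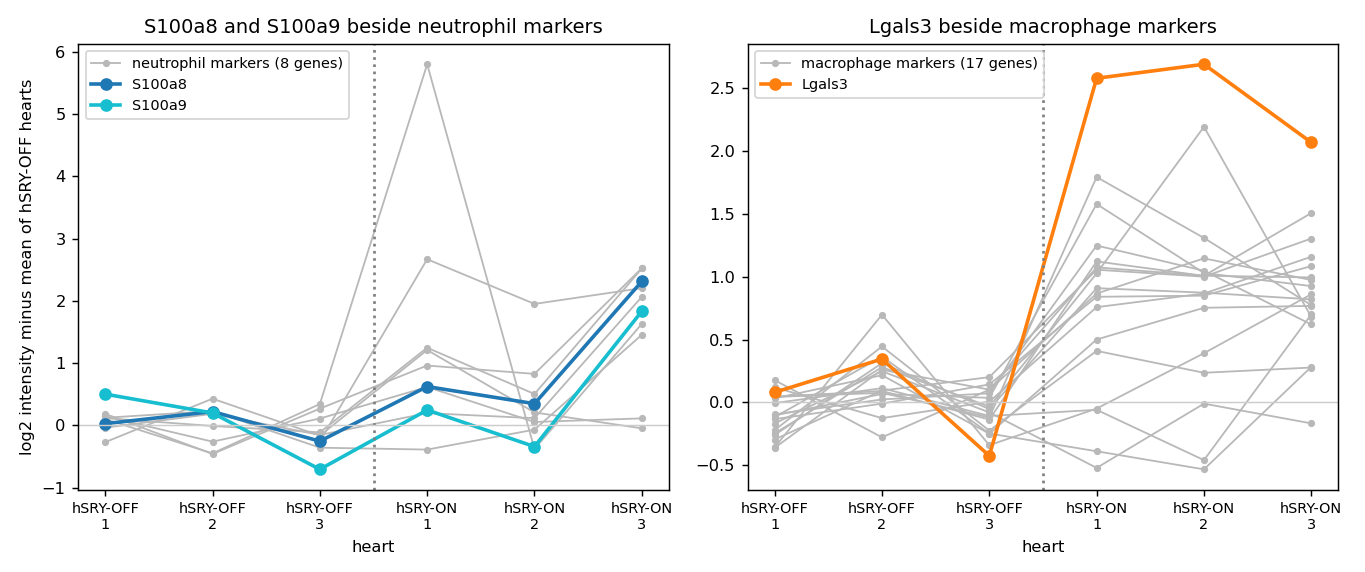
Normalized log2 intensity in each heart minus the mean of the hSRY-OFF hearts (vertical axis) for S100a8 and S100a9 with 8 neutrophil markers (left) and for Lgals3 with 17 macrophage markers (right), 1 line per gene over the 6 hearts. S100a8 and S100a9 peak in hSRY-ON 3 together with 4 neutrophil markers, the other 4 peak in hSRY-ON 1, and Lgals3 and most macrophage markers are high in all 3 hSRY-ON hearts. Lines join hearts of no order.

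Anxa5, which coats membranes that expose phosphatidylserine and is used as a label of apoptotic cells, had the lowest adjusted p-value of the annexins. It read 13.18, 13.19 and 13.16 in hSRY-OFF hearts and 14.09, 13.78 and 13.82 in hSRY-ON hearts. The hSRY-OFF hearts were level and all hSRY-ON hearts above them, and Anxa5 rose by 0.72 (SE 0.13, adjusted p = 0.00547), 1.65-fold. The call was lost only without normalization between arrays (0.55, adjusted p = 0.249), and leaving out any single heart kept it at 0.64 to 0.80.

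Anxa2, a membrane annexin that also serves plasmin formation on the cell surface, read 13.70, 13.67 and 13.64 in hSRY-OFF hearts and 14.17, 13.98 and 14.03 in hSRY-ON hearts. After normalization all hSRY-ON hearts were higher, by 0.39 (SE 0.11, adjusted p = 0.0390), 1.31-fold. The deposited intensities of Anxa2 overlapped (15770, 16295 and 10215 in hSRY-OFF hearts against 16225, 14764 and 15182 in hSRY-ON hearts). The difference was small, and its call held in 6 of 16 alternative settings. Among other settings, it was lost when any one of the 6 hearts was left out, with values of 0.34 to 0.44, under the median and TCC-like scalings (0.27 and 0.34) and without normalization between arrays (0.16). Anxa3, an annexin of neutrophils and endothelium, had a pair of probes with nearly equal values. Both gave a fold change of 0.42 (SE 0.15 and 0.14, adjusted p = 0.0707 and 0.0584), with all hSRY-ON hearts above all hSRY-OFF hearts.

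Anxa8 is an annexin of epithelia and of late endosomes. One of its probes read 5.36, 5.24 and 4.78 in hSRY-OFF hearts, none of them above background, and 6.70, 6.62 and 5.90 in hSRY-ON hearts, all 3 above background. The probe was at least 1.97-fold higher in hSRY-ON hearts (adjusted p = 0.00801 for the fitted difference of 1.28, SE 0.25). The probe passed the detection filter only through the hSRY-ON hearts, where it was high, so its p-value is no independent support. The fitted size depended on the background step, being 0.79 with an offset of 50 and 0.41 without background correction, so the bound holds for the main background step only. The deposited intensity of hSRY-ON 3 (186) was below those of hSRY-OFF 1 and hSRY-OFF 2 (188 and 196). The second Anxa8 probe was above background on no array.

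The remaining annexins were close to level. Anxa6, the large annexin of muscle membranes, read 13.11, 12.98 and 13.38 in hSRY-OFF hearts and 13.24, 13.03 and 13.18 in hSRY-ON hearts, a fold change of -0.01 (SE 0.14, adjusted p = 0.978) whose sign turned with the scaling (0.05 under TCC-like scaling). Anxa11 gave 0.03 (SE 0.11) by its brighter probe, which turned to -0.07 without normalization between arrays. Anxa4 gave 0.15 (SE 0.13, adjusted p = 0.439). Anxa1, a mediator of the end of inflammation, was near background, was detected on 2 hSRY-OFF and 3 hSRY-ON arrays and gave 0.16 (SE 0.12, adjusted p = 0.376).

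Of the 38 symbols, 13 had no tested probe. They were S100a3, S100a4, S100a5, S100a7a, S100b and S100g, Anxa7, Anxa9, Anxa10 and Anxa13, and Lgals6, Lgals7 and Lgals12. Among the 15 untested probes, which include second probes of Anxa8 and S100pbp, 12 were above background on no array. S100a4, which marks fibroblasts and some leukocytes, was above background in 1 hSRY-OFF heart, and Lgals7, a galectin of stratified epithelium, in 2 hSRY-OFF hearts. S100b, the S100 protein of glia and Schwann cells, and Anxa7 were detected on none. At these intensities a difference was not detectable, which does not show that these genes were silent.

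Most S100 genes lie together on mouse chromosome 3. The RefSeq annotation of GRCm38.p6 orders 15 of them there, 13 of which had a probe, and genes called in opposite directions lay close together. S100a13, which rose, is separated only by S100a14 (0.09, not called) from S100a16, which fell. S100a6, which rose, is next to S100a7a and S100a5, both below the detection filter. S100a11, which rose, neighbors S100a10 (0.40, not called) at the far end. All 4 called S100 genes are on this chromosome, but so is every tested S100 gene other than S100pbp. S100b and S100g, which lie elsewhere, were not tested, so the location of the calls carries no information. How often neighboring genes are called in opposite directions over the whole array was not tested.

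**Figure D4:**
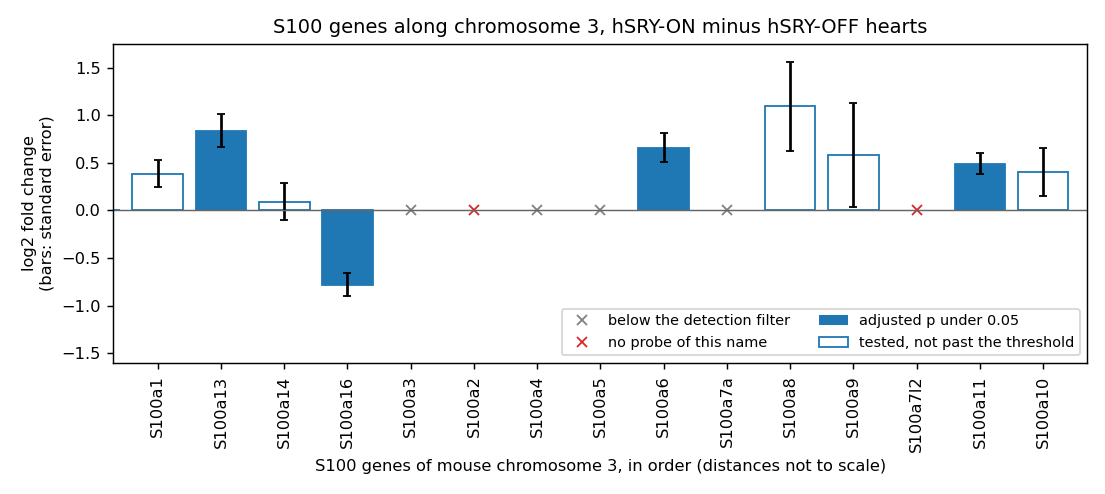
Log2 fold change (bars with SE, 3 hearts per group) of the 15 S100 genes of chromosome 3 in their order along the chromosome, distances not to scale, filled where the adjusted p-value was under 0.05. S100a16 is the only bar below 0, at -0.78, and gray and red crosses mark genes below the detection filter or without a probe.

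To show what lies in front of these genes, the 250 bases before each annotated start were taken from a table of RefSeq promoters (GRCm38.p6). It held 38 promoters of 30 member symbols, some with several starts, and none of S100a10, S100a14, Anxa3, Anxa6, Anxa13, Lgals1, Lgals6 or Lgals12. The promoters were searched for AACAAT, the core to which SRY and SOX proteins bind, for the GC box GGGCGG and for the AP-1 site TGANTCA on both strands, and for TATAAA on the strand of the gene only. These letters do not share bases in the stretches below. AACAAT was present in 9.42% of all 32851 promoters in the table and in 4 of the 38 promoters it lists for members, those of S100a16, S100a4, S100g and Lgals8. GGGCGG was present in 32.7% of all promoters and 12 of the members, TGANTCA in 6.75% and 4, and TATAAA in 7.59% and 6. A match is a run of letters and does not show that a protein binds there.

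The called genes Lgals3 (chr14:47373610-47373859), S100a6 (chr3:90612644-90612893), S100a11 (chr3:93520246-93520495), the downstream of the annotated starts of S100a16 (chr3:90540896-90541145) and Anxa2 (chr9:69453433-69453682), all on the plus strand, are shown as the strongest riser, the S100 genes with opposite directions and the annexin partner of the family. The short stretch between S100a1 and S100a13 (chr3:90514331-90514434, plus strand), which start back to back, is shown because both genes had all hSRY-ON hearts above all hSRY-OFF hearts. Capitals mark the letters searched for, on either strand, 5′ to 3′.
Lgals3: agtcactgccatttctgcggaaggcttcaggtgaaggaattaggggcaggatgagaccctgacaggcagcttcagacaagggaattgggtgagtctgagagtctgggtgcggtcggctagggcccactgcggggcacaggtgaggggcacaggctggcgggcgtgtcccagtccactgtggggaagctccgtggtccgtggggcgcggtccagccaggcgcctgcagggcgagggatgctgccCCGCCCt
S100a6: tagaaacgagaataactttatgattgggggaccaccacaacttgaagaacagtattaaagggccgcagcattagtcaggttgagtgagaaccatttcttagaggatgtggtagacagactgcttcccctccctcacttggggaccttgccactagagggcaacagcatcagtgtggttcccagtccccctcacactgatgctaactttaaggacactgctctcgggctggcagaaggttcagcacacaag
S100a11: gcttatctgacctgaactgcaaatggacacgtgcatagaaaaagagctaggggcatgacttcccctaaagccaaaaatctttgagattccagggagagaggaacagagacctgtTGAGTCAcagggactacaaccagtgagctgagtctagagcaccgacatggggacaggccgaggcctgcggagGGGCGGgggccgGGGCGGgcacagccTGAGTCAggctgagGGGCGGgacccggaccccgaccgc
S100a16: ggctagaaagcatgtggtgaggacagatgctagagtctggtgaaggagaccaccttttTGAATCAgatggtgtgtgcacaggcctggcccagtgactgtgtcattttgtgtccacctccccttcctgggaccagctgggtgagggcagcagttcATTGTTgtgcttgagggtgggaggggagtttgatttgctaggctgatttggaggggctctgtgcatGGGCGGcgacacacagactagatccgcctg
Anxa2: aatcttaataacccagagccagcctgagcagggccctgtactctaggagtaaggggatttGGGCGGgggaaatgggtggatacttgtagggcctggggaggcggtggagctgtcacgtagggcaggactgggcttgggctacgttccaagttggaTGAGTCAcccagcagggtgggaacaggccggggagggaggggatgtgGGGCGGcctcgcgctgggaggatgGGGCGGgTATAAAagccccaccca
S100a1 and S100a13: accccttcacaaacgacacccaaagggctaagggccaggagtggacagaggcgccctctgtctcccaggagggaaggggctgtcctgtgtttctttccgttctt

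S100a11 and Anxa2 each carried 3 GC boxes, S100a11 with 2 and Anxa2 with 1 copy of TGAGTCA, and Anxa2 also had TATAAA 12 to 17 bases before its start. S100a16 had the SRY and SOX core at the start shown, as ATTGTT at 91 to 96 bases before it, beside 1 GC box and 1 TGAATCA, whereas the 250 bases before its other start (chr3:90537004-90537253) held none of the 4 motifs. No other stretch shown had that core. Lgals3 had a single GC box, as CCGCCC at 2 to 7 bases before its start. S100a6 and the stretch between S100a1 and S100a13 held none of the 4 motifs.

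Known partners and receptors of the 3 families were examined as a list of 36 genes, 35 of which were on the array and 21 tested. Of these, 4 rose and 1 fell, with a median of 0.24, against 28.8% of all genes called in either direction. Fpr2, the formyl peptide receptor that binds Anxa1, read 5.45, 5.62 and 5.57 in hSRY-OFF hearts and 7.33, 7.18 and 6.95 in hSRY-ON hearts. All hSRY-ON hearts were higher, by 1.60 (SE 0.14, adjusted p = 0.000368), although Anxa1 itself was not called. Mertk, a receptor for the uptake of apoptotic cells that is bound by Lgals3, rose by 1.18 (SE 0.14, adjusted p = 0.00126), Cd44, a hyaluronan receptor and galectin ligand, by 0.67 (SE 0.15, adjusted p = 0.0124) and the myeloid receptor Cd33 by 0.63 (SE 0.17, adjusted p = 0.0322). Plau, the plasminogen activator urokinase, fell by 0.65 (adjusted p = 0.0343). The S100 receptors Ager (0.52, SE 0.20, adjusted p = 0.0961) and Tlr4 (0.06, SE 0.15, adjusted p = 0.813) were not called, nor was Ahnak, the scaffold bound by S100a10 and Anxa2 (0.38, SE 0.15, adjusted p = 0.0988). Another 12 genes of the list, among them Itgam, Ptprc, Cd36 and Fpr1, were above background on no array.

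Transcripts listed as S100a1 targets in the cardiac myocyte were lower where they changed. Of 8 listed genes 7 were tested, 0 rose and 4 fell, with a median of -1.09, while 13.9% of all genes fell. Pln and Ryr2 also stand in the list of cardiac myocyte markers, 5 of whose 10 tested genes fell. Glycogen phosphorylase Pygm read 10.22, 10.09 and 10.17 in hSRY-OFF hearts and 8.46, 8.64 and 8.78 in hSRY-ON hearts. The groups were far apart, at -1.54 (SE 0.13, adjusted p = 0.000316). Phospholamban (Pln) gave -1.47 (SE 0.29, adjusted p = 0.00908), the ATP synthase subunit Atp5a1 -1.42 (SE 0.21, adjusted p = 0.00255) and the ryanodine receptor Ryr2 -1.09 (SE 0.24, adjusted p = 0.0125). In hSRY-ON hearts Ryr2 was near background (5.12, 6.03 and 5.78) and detected on 2 arrays, so the size of its difference is less certain. The calcium pump gene Atp2a2 gave -0.09 (SE 0.11, adjusted p = 0.590), titin (Ttn) -0.21 and the sodium-calcium exchanger Slc8a1 -0.25, and these 3 were not called. S100a1 itself had a positive value in the same hearts (0.38, not called).

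Markers of other cells that make these proteins were read in the same way, beside the 14.9% of all 9660 genes that rose and the 13.9% that fell. The 10 tested cardiac myocyte markers, which define the tissue, were detected in both groups, 1 rose (Myh7) and 5 fell, with summed levels of 193296 to 205462 against 185896 to 197964 (hSRY-OFF against hSRY-ON, as for the sums that follow). Myl2, Myl3 and Nppa were the brightest of them, at 15.25 to 15.42 in every heart. Quantile normalization gives the top ranks the same values on every array, so this sum could hardly move. Of 9 fibroblast markers 1 rose (Tcf21, 0.76) and 0 fell, and their summed levels overlapped (35781 to 37999 against 33590 to 37115), where S100a6 rose and S100a4 was mostly below background. Of 7 markers of the mesothelium that covers the heart 3 rose (Krt18, Krt8 and Krt19). The sums of the 7 were 1956 to 2404 against 3140 to 3263. The other 4, Upk3b (-0.04), Bnc1 (0.20), Msln (0.36) and Upk1b (0.85), were not called. Of 4 epithelial genes 1 rose (Krt14, 1.05), with sums of 394 to 536 against 598 to 932. The other 3, Cdh1 (-0.39), Krt7 (0.11) and Sftpb (0.67), were not called, and Krt5 and Cldn4 were above background on no array. Anxa8, which epithelia make, was higher in the same hearts. Whether these cells had a part in the values of Anxa8 was not tested. Of 8 smooth muscle and pericyte markers 2 rose (Tagln, 1.81, and Acta2, 0.53) and 1 fell (Abcc9, -0.74), with a median of -0.16. Their sums were 40994 to 46377 against 53948 to 57537, and Acta2 was the brightest gene in them (means of 14.74 and 15.27). Of 8 endothelial markers 2 rose and 3 fell, with sums of 17155 to 19195 against 16127 to 18812. Adipocyte markers (4 tested, 2 rose) varied among the hSRY-ON hearts, with sums of 1803 to 2575 against 1037 to 3592, and Lgals12, a galectin of fat, was below background in every heart. Of 3 glial markers 0 changed, and of 4 thymus and T cell markers 2 fell (Cd3g and Cd3d), with sums of 125 to 147 against 94.4 to 113. Cd3g was above background in 3 hSRY-OFF hearts and 1 hSRY-ON heart, and Cd3d in 2 and 1. These calls thus rest on values near background that passed the filter mainly through the hSRY-OFF hearts. Cd3e, Cd4, Cd8a, Dntt, Rag1 and Rag2 were above background on no array.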

How the data were processed

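The hearts of 3 hSRY-ON and 3 hSRY-OFF mice were grouped by their labels. The authors deposited, for each of 25697 probes and 6 arrays, a mean bead intensity that was not normalized and from which no background had been subtracted, and a detection p-value against the negative-control beads of the array. How the beads were summarised is not given in the sources used here, and the values depend on no genome build. The study's methods name the package TCC without settings, and the submitters' processing notes name limma.

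The intensities were processed with limma 3.58.1 in R 4.3.3. Background was removed with the normal-exponential model of the nec function, which took the mean and spread of the negative controls from the detection p-values, followed by an offset of 16, quantile normalization between arrays and log2 transformation. Quantile normalization gives all arrays the same distribution, so a shift of the whole transcriptome would not be seen. Probes with a detection p-value under 0.05 on at least 3 of 6 arrays entered a linear model (lmFit, eBayes) that held the group alone. For a probe not detected in any heart of one group, a lower bound was computed from the lowest detected signals of that group's arrays. It holds on the scale of the main background correction only and carries no SE. A gene of a list was represented by its brightest tested probe. Only the 3 arrays per group limit the precision, and the smallest exact two-sided p-value of 3 hearts against 3 is 0.1, so no single-gene permutation test was used. The p-values rest on the spread between these hearts, with the variance of each probe drawn toward that of all probes by eBayes. Without normalization between arrays the fitted SE was the same for every member (0.30). Calls gained or lost in that setting therefore do not reflect a probe's own spread.

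The genes named were all called members, further members set by name, and the called genes of the partner lists. Members and gene lists were chosen with earlier results of these data known. The alternatives were no background correction, an offset of 50, no normalization between arrays, median scaling, a TCC-like scaling, no probe filter, detection on all 6 arrays or at 0.01, a variance trend, the replicate number as a block, leaving out each heart in turn, and 1 probe per gene. The steps were tested on simulated data. Summaries and figures were made with Python 3.11.15, pandas 2.3.3 and matplotlib 3.10.9. The files hold no label of a slide or scan.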

Additional observations from a re-analysis of the deposited data

How the results depend on the processing

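Across the alternatives, single members kept their direction and their side of the threshold in 406 comparisons, lost the call in 35, gained one in 14 and turned sign in 12, all of the last in members that were not called. Lgals3 and S100a16 were called under every alternative. Without normalization between arrays, 1897 probes were called in place of 3567, S100 calls were 2, annexin calls 1, galectin calls 1 and calls among partners and receptors 2. That setting moved the median of all probes to -0.12 (log2), and relative to it Lgals3 stood at 2.44, S100a16 at -0.77, S100a13 at 0.86, S100a8 at 1.12 and Anxa5 at 0.67. Annexin calls numbered 5 without background correction, with an offset of 50 and with an intensity trend. Galectin calls numbered 1 under the TCC-like scaling and without a probe filter. The replicate numbers did not pair the hearts (correlations of deviations -0.02, 0.04 and -0.07), and with them as a replicate block 2842 probes were called, 8 of them members, without the calls of Anxa2 and Lgals9. With each heart left out in turn, all calls ranged from 2206 (without hSRY-OFF 1) to 3669 (without hSRY-OFF 3), S100 calls from 2 to 4, annexin calls from 1 to 3, galectin calls from 1 (without hSRY-OFF 2, hSRY-ON 1 or hSRY-ON 2) to 5 (without hSRY-OFF 3), calls of partners and receptors from 2 to 6 while those of S100a1 targets stayed at 4. The cause of these shifts was not tested. The sign turned for the brighter Anxa11 probe without normalization (-0.074) and within its range of -0.0093 to 0.067 over the hearts left out (lowest without hSRY-ON 2), for the dimmer one under median scaling (0.015), TCC-like scaling (0.088) and within -0.26 to 0.16 over the hearts left out (positive without hSRY-OFF 1, hSRY-OFF 3 or hSRY-ON 2), and for Anxa6 under TCC-like scaling (0.051) and within -0.095 to 0.11 (positive without hSRY-OFF 3 or hSRY-ON 2). It also turned for S100a14 (-0.049 without hSRY-OFF 1, up to 0.29) and for S100a9 (-0.047 without hSRY-ON 3, up to 1.04). Members near background, such as S100a14, Anxa1 and Lgals2, carry little signal, which limits what these arrays can show of them.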
